A study of Mus musculus with 6 samples.

Results

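The 44 collagen chain genes are the rows of the count table whose mouse gene symbol is Col, a number, a and a number, out of 32493 genes in all. They were measured by RNA-seq in cultured neural stem cells (NSCs) from the brains of E14.5 embryos. In cko embryos the miR-151 fl/fl locus was combined with Emx1-IRES-Cre, whose Cre recombinase is made in the dorsal telencephalon. Their ctrl littermates, labelled wt, had miR-151 fl/fl and no Cre, so both genotypes share the floxed locus on a C57BL/6J background. Cells came from tissue around the lateral ventricles and had been through 3 generations in culture; no sort for cells in which Cre had acted is described. The comparison asks which transcripts differ between NSCs with and without the miR-151 deletion, here for the chains of the collagens. It rests on 3 cko libraries and on ctrl libraries 1 and 3. The column given for ctrl replicate 2 equals the mean of the other ctrl columns, rounded up to a whole number, in 32493 of 32493 genes and was counted in no n.

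Collagens are extracellular matrix proteins in which 3 chains wind into a triple helix. Fibrillar collagens (types I, II, III, V, XI, XXIV and XXVII) build striated fibrils. Collagen IV forms the sheet-like network of basement membranes, and the FACIT collagens (fibril-associated collagens with interrupted triple helices) sit on fibril surfaces. Collagen VI forms beaded filaments, and a few collagens span the cell membrane. New chains are hydroxylated and folded in the endoplasmic reticulum, then secreted, trimmed and cross-linked. In the embryonic brain collagens are best known from the pial basement membrane and blood vessels, while types II, IX and XI are best known from cartilage. Of the 44 genes, 11 are fibrillar, 6 belong to basement membranes, 9 are FACITs, 6 are beaded, 4 are transmembrane, 2 are multiplexins, 3 form short-chain networks and 3 are anchoring or other chains.

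Library totals ran from 17883796 to 23335736 counts, so that 3 counts, the smallest level read here, equalled 0.129 to 0.168 CPM (the unit that scales counts to the library total, here adjusted by TMM). *Mir151* was not among the genes counted, so the deletion could not be checked in these libraries. Its host gene *Ptk2* had 133 and 150 CPM in the ctrl libraries and 138 to 142 CPM in the cko libraries. The NSC marker *Sox2* had 556 to 583 CPM in ctrl and 607 to 626 CPM in cko. The X-linked *Xist* had 2557 to 2889 CPM in ctrl and 787 to 894 CPM in cko, and the Y-linked *Kdm5d* had 25.1 to 27.0 CPM in ctrl and 67.6 to 69.1 CPM in cko. Both moved with genotype, and the part of this in the collagen differences was not tested.

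Sequences before the annotated starts are shown for *Col11a2*, *Col11a1* and *Col9a1*, which code for chains of collagens XI and IX and whose levels are described below. RefSeq gave promoter windows, from 250 bases before to 50 bases after a start, for 35 of the 44 genes in 38 windows. The other 9 genes are *Col1a1*, *Col2a1*, *Col4a3*, *Col5a2*, *Col9a3*, *Col12a1*, *Col14a1*, *Col22a1* and *Col26a1*. The 250 bases before each start are printed 5′ to 3′ on the plus strand of GRCm38.p6. For *Col11a2*, the RefSeq start lies upstream of the GENCODE start given with its values. Capitals mark the GC box GGGCGG (or CCGCCC), the TATA box TATAAA (or TTTATA) and the CCAAT box CCAAT (or ATTGG).
Col11a2, chr17:34038888-34039137: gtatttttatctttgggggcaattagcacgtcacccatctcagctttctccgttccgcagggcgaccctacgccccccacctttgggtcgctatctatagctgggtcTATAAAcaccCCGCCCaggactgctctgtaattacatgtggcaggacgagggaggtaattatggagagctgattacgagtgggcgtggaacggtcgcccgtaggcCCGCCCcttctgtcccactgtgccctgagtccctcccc
Col11a1, chr3:114030290-114030539: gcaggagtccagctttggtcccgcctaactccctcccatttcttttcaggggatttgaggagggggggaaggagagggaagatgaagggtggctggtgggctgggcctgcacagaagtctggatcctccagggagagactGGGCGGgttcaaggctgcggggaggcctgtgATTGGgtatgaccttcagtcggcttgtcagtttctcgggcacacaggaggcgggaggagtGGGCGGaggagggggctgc
Col9a1, chr1:24177360-24177609: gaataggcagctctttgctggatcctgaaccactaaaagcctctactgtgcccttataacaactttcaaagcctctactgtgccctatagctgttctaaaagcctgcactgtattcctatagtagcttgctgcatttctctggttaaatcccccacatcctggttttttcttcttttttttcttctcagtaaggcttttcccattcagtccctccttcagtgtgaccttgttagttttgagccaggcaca
The *Col11a2* stretch holds 1 match to the TATA box letters and 2 to the GC box letters. The *Col11a1* stretch holds 2 matches to the GC box letters and 1 to the CCAAT box letters. The *Col9a1* stretch at the upstream start holds none of these letters. *Col9a1* has another start downstream, with its own window and 1 CCAAT box. Searched on both strands over the full windows, GGGCGG occurred in 60.5% of collagen windows and 35.7% of all 32851 windows. TATAAA occurred in 13.2% and 13.6%, and CCAAT in 34.2% and 37.4%. The letters ACAAT (or ATTGT), the core bound by SOX proteins, occurred in 5.26% of collagen windows, those of *Col3a1* and *Col28a1*, and in 31.0% of all windows. ACAAT differs from CCAAT only in the first letter, so both cannot match the same bases. A match says only that the letters are in the window, and its distance from the start was not weighed. No match says only that these letters are not in the window.

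The summed level of collagen transcripts was lower in every cko library than in either ctrl library. Summed over the 44 genes, the level was 670 and 655 CPM in ctrl libraries 1 and 3, and 374, 369 and 405 CPM in cko libraries 1, 2 and 3. Divided by exon length, the sum was 89.5 ± 1.15 CPM per kb (SD, n = 2) in ctrl and 49.1 ± 3.14 CPM per kb (SD, n = 3) in cko. The small ctrl SD does not hold for each class, since classes differed in opposite directions between ctrl libraries 1 and 3. The basement membrane sum was 27.78 and 14.51 CPM per kb in these libraries. The FACIT sum was 33.74 and 40.49 CPM per kb, and the fibrillar sum was 24.60 and 27.39 CPM per kb. In these bulk cultures, fewer cells of a type and less RNA per cell cannot be told apart.

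Of the 44 genes, 30 passed the filter on low counts and were tested. In the quasi-likelihood test of edgeR, with a call at an adjusted p under 0.05, 11 of these 30 were lower in cko, that is 36.7%, against 8.57% of all 16710 genes tested. None of the 30 passed that threshold as higher, against 7.86% of all genes tested. At an unadjusted p under 0.05, edgeR gave 19 lower and 2 higher, against 16.7% and 15.9% of all genes tested. DESeq2, fitted without that filter, gave 32 of the 44 genes an adjusted p and called 16 lower and 1 higher at an adjusted p under 0.05, against 9.64% and 9.02% of 16321 genes. Beyond the 11 lower in edgeR these were *Col3a1*, *Col4a1*, *Col5a1*, *Col9a2* and *Col9a3*, all lower, and *Col18a1*, higher. At the study's own threshold, a log2 fold change beyond 0.9 with an unadjusted p under 0.01, 8 of 30 were lower and 0 higher in edgeR. The background of that threshold was 4.17% lower and 2.39% higher. All cko libraries lay below both ctrl libraries in 19 of the 30 genes, against 24.3% of all genes tested, and above both in 2, against 25.4%. The fitted log2 fold change was negative in 24 of 30 genes with a median of −0.74 (−0.48 without ctrl library 3), beside a median of −0.0026 over all genes tested. The 11 genes called lower are *Col2a1*, *Col9a1*, *Col11a2*, *Col5a2*, *Col4a2*, *Col4a5*, *Col20a1*, *Col26a1*, *Col16a1*, *Col12a1* and *Col11a1*. When each library was left out in turn, 6 of the 11 were called in all 5 fits, namely *Col2a1*, *Col9a1*, *Col11a2*, *Col5a2*, *Col20a1* and *Col16a1*. The number of collagen genes called lower was 6 of 29 tested without cko library 2 and 6 of 30 tested without cko library 3. The share of all genes called in the fits that left out a library is not given here.

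**Figure D1:**
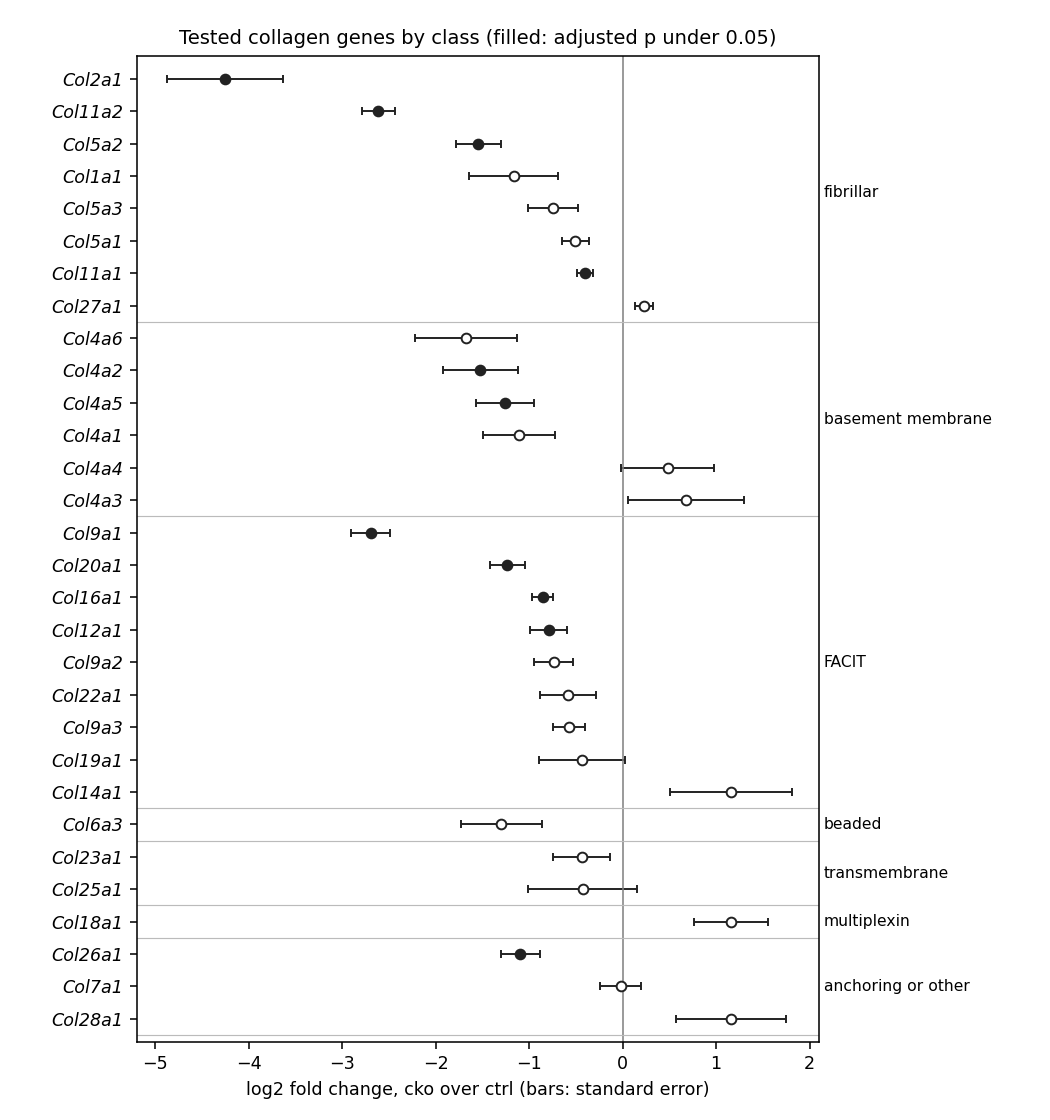
Fitted log2 fold change (cko over ctrl, x axis) of the 30 tested collagen genes, ordered by class, with bars of 1 standard error and filled points at an adjusted p under 0.05 in edgeR. The filled points all lie left of 0, from −4.25 for Col2a1 to −0.40 for Col11a1, and no point right of 0 is filled.

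Among the fibrillar chains, 4 of 8 tested genes were called lower and 0 higher, with a median log2 fold change of −0.96 (−0.52 without ctrl library 3). *Col2a1* (chromosome 15, 97975602 to 98004695, minus strand, GRCm38) codes for the only chain of collagen II, the main fibrillar collagen of cartilage. Its level was 9.61 and 39.3 CPM in ctrl libraries 1 and 3, and 0.616, 1.46 and 1.65 CPM in cko libraries 1, 2 and 3. The groups did not overlap, but the ctrl libraries differed 4.09-fold from each other. The log2 fold change was −4.25 ± 0.62 (SE; edgeR adjusted p = 0.0058), the largest fall of any collagen gene tested. It was −2.91 (adjusted p = 0.0009) without ctrl library 3 and −4.95 without ctrl library 1, so its size rests on the ctrl libraries.

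*Col11a2* (chromosome 17, 34039437 to 34066685, plus strand), whose upstream bases are printed above, codes for a chain of collagen XI, which sets the diameter of collagen II fibrils. Its level was 20.7 and 20.0 CPM in ctrl and 3.97, 2.79 and 3.26 CPM in cko. Both ctrl libraries were alike and every cko library was far below them. The log2 fold change was −2.61 ± 0.18 (SE; edgeR adjusted p = 0.0007), a mean level 6.10-fold lower, and it stayed between −2.76 and −2.51 when any library was left out. *Col11a1*, which codes for another chain of collagen XI, had 92.6 and 84.2 CPM in ctrl and 70.3, 63.4 and 67.1 CPM in cko. Its log2 fold change was −0.40 ± 0.083 (SE; edgeR adjusted p = 0.0194). The call was lost without cko library 2 (adjusted p = 0.0957) and without cko library 3 (adjusted p = 0.0886). Per kb of exon, the level of *Col11a1* was 2.41 and 2.27 times that of *Col11a2* in ctrl, and 9.55, 12.3 and 11.1 times in cko. These ratios did not overlap between the genotypes.

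Collagen V nucleates fibrils, and its chains are coded by *Col5a1*, *Col5a2* and *Col5a3*. *Col5a2* had 54.0 and 36.4 CPM in ctrl and 20.9, 13.3 and 12.7 CPM in cko, a log2 fold change of −1.54 ± 0.25 (SE; edgeR adjusted p = 0.0078). The highest cko value lay below the lower ctrl value. *Col5a1*, whose product is present in nearly all collagen V trimers, had 16.2 and 17.3 CPM in ctrl and 10.7 to 13.4 CPM in cko. Its log2 fold change of −0.51 missed the threshold in edgeR (adjusted p = 0.0515) and passed it in DESeq2 (0.0380), unfiltered (0.0259), with at least 10 counts in every library (0.0479) and without ctrl library 1 (0.0415). With the replicate block the adjusted p was 0.136. The log2 fold change of *Col5a3* was −0.75 (edgeR adjusted p = 0.0986; −1.13 and 0.0041 without ctrl library 1), with 18.1 CPM in ctrl library 3 and between 6.77 and 10.05 CPM in the other 4 libraries. Both genes had all cko libraries below the ctrl libraries.

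The collagen I and III genes, the most abundant collagens of fibroblasts, were at no more than 2.77 CPM in any library. *Col1a1* had 1.35 and 2.77 CPM in ctrl and 0.504 to 1.33 CPM in cko, with a log2 fold change of −1.17 (edgeR adjusted p = 0.141; −1.61 and 0.0440 without ctrl library 1). *Col1a2* had at most 9 counts in any library. *Col3a1* had 42 counts in ctrl library 3 and 1 in ctrl library 1, against 1, 0 and 0 in the cko libraries, so its ctrl level rests on 1 library. Neither *Col1a2* nor *Col3a1* passed the filter, nor did *Col24a1* with at most 4 counts. *Col27a1*, which codes for a fibrillar collagen of developing cartilage, had 52.0 and 57.9 CPM in ctrl and 60.2, 62.7 and 69.9 CPM in cko. All cko values were above both ctrl values, and the log2 fold change was 0.23 (adjusted p = 0.151).

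**Figure D2:**
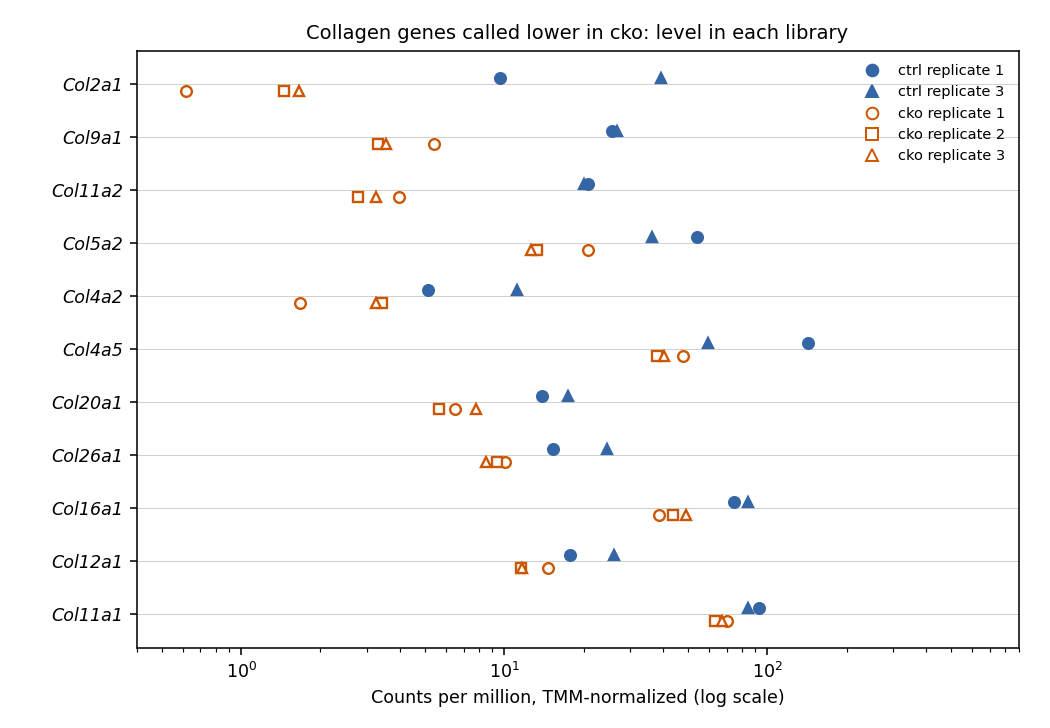
Level of the 11 collagen genes called lower in cko, in TMM-normalized CPM (log-scaled x axis), with 1 point per library (filled blue, ctrl; open orange, cko; the shape gives the replicate number). In each row every cko point lies left of both ctrl points, and the ctrl points are farthest apart on the log axis for Col2a1, at 9.61 and 39.3 CPM.

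The FACIT genes were all tested, and 4 of 9 were called lower and 0 higher, with a median log2 fold change of −0.74. *Col9a1* (chromosome 1, 24177610 to 24252684, plus strand) codes for a chain of collagen IX, which coats collagen II fibrils. It had 25.7 and 26.9 CPM in ctrl and 5.43, 3.30 and 3.54 CPM in cko. The ctrl libraries were close to each other and well apart from cko. The log2 fold change was −2.70 ± 0.21 (SE; edgeR adjusted p = 0.0011), a mean level 6.43-fold lower, with a range of −2.95 to −2.57 when any library was left out. *Col9a2* and *Col9a3* code for the other chains of the collagen IX trimer. *Col9a2* had 6.55 and 6.72 CPM in ctrl and 3.19 to 4.41 CPM in cko, a log2 fold change of −0.74 (adjusted p = 0.0522). *Col9a3*, the FACIT gene with the highest level per kb, had 42.1 and 52.6 CPM in ctrl and 24.8, 34.0 and 36.1 CPM in cko, a log2 fold change of −0.58 (adjusted p = 0.0590). Neither passed the threshold in edgeR, while DESeq2 called both (adjusted p = 0.0433 for *Col9a2* and 0.0186 for *Col9a3*). *Col9a3* was also called with the replicate block (adjusted p = 0.0094) and without ctrl library 1 (0.0195), and *Col9a2* with at least 10 counts in every library (0.0474). All cko libraries were below both ctrl libraries in each gene. Per kb of exon, the level of *Col9a1* was 0.464 and 0.389 of that of *Col9a3* in ctrl and 0.166, 0.0738 and 0.0745 in cko. Of the *Col9a3* exon bases, 6.07% overlap *Tcfl5* on the opposite strand, and reads there may belong to either gene.

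The other FACITs called lower were *Col20a1*, *Col16a1* and *Col12a1*. *Col16a1*, a FACIT made by many connective tissues, had 74.5 and 84.6 CPM in ctrl and 38.7, 43.9 and 49.0 CPM in cko, a log2 fold change of −0.86 ± 0.11 (SE; edgeR adjusted p = 0.0044). *Col20a1* had 13.9 and 17.4 CPM in ctrl and 6.49, 5.66 and 7.81 CPM in cko, a log2 fold change of −1.24 ± 0.19 (SE; edgeR adjusted p = 0.0066). Both genes were separated by genotype by more than their spread within a group. *Col12a1*, known from tendon and other dense connective tissue, had 17.7 and 26.0 CPM in ctrl and 14.7, 11.5 and 11.7 CPM in cko, a log2 fold change of −0.79 ± 0.19 (SE; edgeR adjusted p = 0.0334). This call was less stable. It was lost without cko library 1 (adjusted p = 0.0520), cko library 2 (0.133), cko library 3 (0.132) and ctrl library 3 (0.0785, log2 fold change −0.49). The rest of the class did not pass the threshold in edgeR. *Col22a1*, known from tissue junctions, and *Col19a1* had log2 fold changes of −0.58 (adjusted p = 0.223) and −0.43 (adjusted p = 0.564), and *Col14a1* one of 1.16 (adjusted p = 0.266) at no more than 1.01 CPM. The sign of *Col19a1* followed the ctrl library, with 2.97 and 10.7 CPM in ctrl libraries 1 and 3 and 4.48 to 5.57 CPM in cko. Its log2 fold change was −1.10 (adjusted p = 0.0053) without ctrl library 1 and 0.76 without ctrl library 3.

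Chains of collagens II, IX and XI, which are copolymerized in the same cartilage fibrils, were grouped after their values had been seen. The fitted log2 fold change was negative in 6 of 6, and 4 were called lower, with a median of −1.68. Within this group, *Col2a1*, *Col9a1* and *Col11a2* had log2 fold changes of −4.25, −2.70 and −2.61. *Col9a2*, *Col9a3* and *Col11a1* had −0.74, −0.58 and −0.40. The median of the other 24 tested collagen genes, among them *Col27a1* at 0.23, was −0.67, and 7 of them were called lower. Since the group was picked by its values, the difference between these medians is no test of it. Summed over the 6 genes, the level per kb of exon was 29.4 and 34.9 CPM per kb in ctrl and 14.7, 16.4 and 17.4 CPM per kb in cko. In cartilage SOX9, with SOX5 and SOX6, activates genes of these chains, and these genes were also looked up after the collagen values were seen. *Sox9* had 446 and 364 CPM in ctrl and 457 to 518 CPM in cko (log2 fold change 0.25, adjusted p = 0.157). *Sox5* was higher in cko (0.42, adjusted p = 0.0103), and the value for *Sox6* was 0.20 (adjusted p = 0.218).

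All 6 collagen IV genes were tested, and 2 were called lower and 0 higher, with a median log2 fold change of −1.19. This median was −0.33 without ctrl library 1 and −0.51 without ctrl library 3. They lie as head-to-head pairs on 3 chromosomes, and the values below are given pair by pair. *Col4a1* (chromosome 8, 11198423 to 11312826, minus strand) and *Col4a2* (11312805 to 11449287, plus strand) code for the chains of the common basement membrane network. Their annotated starts overlap by 22 bases. *Col4a2* had 5.11 and 11.2 CPM in ctrl and 1.68, 3.43 and 3.26 CPM in cko, a log2 fold change of −1.52 ± 0.40 (SE; edgeR adjusted p = 0.0414). *Col4a1* had 7.47 and 21.4 CPM in ctrl and 6.04, 6.43 and 7.45 CPM in cko, a log2 fold change of −1.11 ± 0.39 (SE; edgeR adjusted p = 0.0936). Both genes were higher in ctrl library 3 than in ctrl library 1, by 2.18-fold and 2.86-fold. Without ctrl library 3 the log2 fold changes were −0.85 (adjusted p = 0.127) for *Col4a2* and −0.16 (adjusted p = 0.613) for *Col4a1*. *Col4a1* was called without ctrl library 1 (−1.69, adjusted p = 0.0003). The *Col4a2* call was also lost without cko library 1 (adjusted p = 0.103), cko library 2 (0.104) and cko library 3 (0.115).

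*Col4a5* (X chromosome, 141475385 to 141689234, plus strand) and *Col4a6* (141165403 to 141474076, minus strand) are separated by 1308 bases. *Col4a5* had the highest mean level per kb of exon of the collagen genes in ctrl. It had 21.1 CPM per kb in ctrl library 1 and 8.82 in ctrl library 3, where *Col9a3* (13.6) and *Col16a1* (12.5) were higher. The TMM-normalized level of *Col4a5* was 142 and 59.2 CPM in ctrl and 47.9, 37.9 and 40.5 CPM in cko. Its log2 fold change was −1.26 ± 0.31 (SE; edgeR adjusted p = 0.0343). *Col4a6* had 38.0 and 8.06 CPM in ctrl and 8.56, 5.49 and 7.81 CPM in cko, a log2 fold change of −1.67 ± 0.54 (SE; edgeR adjusted p = 0.0775). In this pair it was ctrl library 1 that stood high, by 2.40-fold and 4.72-fold over ctrl library 3, the reverse of *Col4a1* and *Col4a2*. Without ctrl library 1 the log2 fold changes were −0.50 (adjusted p = 0.0255) and −0.16 (adjusted p = 0.699). *Col4a6* was called without ctrl library 3 (−2.39, adjusted p = 0.0002). The *Col4a5* call was lost without cko library 1 (adjusted p = 0.0826), cko library 2 (0.130) and cko library 3 (0.123). Both genes are X-linked, and the part of the *Xist* difference in their levels was not tested. *Col4a3* and *Col4a4*, whose products join that of *Col4a5* in the kidney glomerulus, reached at most 1.96 CPM and 0.783 CPM and had log2 fold changes of 0.68 (adjusted p = 0.488) and 0.48 (adjusted p = 0.551).

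**Figure D3:**
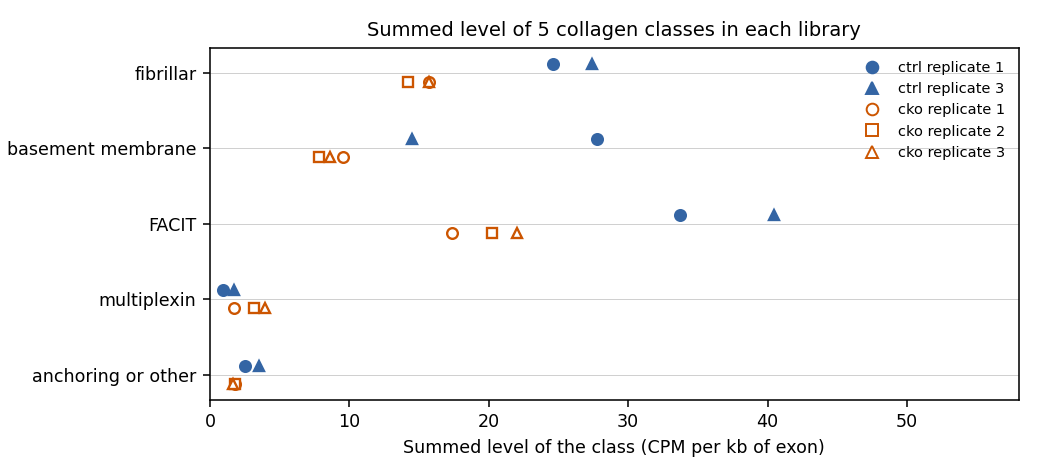
Level summed over each of 5 collagen classes, in CPM per kb of exon (x axis), with 1 point per library (filled blue, ctrl; open orange, cko; the shape gives the replicate number). The fibrillar, basement membrane, FACIT and anchoring or other sums are lower in every cko library than in either ctrl library. The basement membrane sum differs between the ctrl libraries, and the multiplexin sum overlaps between the genotypes.

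In the remaining classes edgeR called 1 gene, *Col26a1*. The gene, which codes for a short secreted collagen first described in testis and ovary, had 15.4 and 24.5 CPM in ctrl and 10.1, 9.39 and 8.50 CPM in cko. The groups did not overlap, and the log2 fold change was −1.10 ± 0.21 (SE; edgeR adjusted p = 0.0142). The call was lost without cko library 2 (adjusted p = 0.0704) and cko library 3 (adjusted p = 0.0750). *Col18a1*, the multiplexin whose cleaved end is endostatin, had 6.25 and 12.2 CPM in ctrl and 11.8, 21.9 and 27.3 CPM in cko. Its log2 fold change of 1.16 ± 0.40 (SE; edgeR adjusted p = 0.0892) pointed up, but cko library 1 lay below ctrl library 3. Without ctrl library 3 it was 1.71 and past the threshold (adjusted p = 0.0190), and it also passed in DESeq2 (0.0110) and with the replicate block (0.0044). *Col7a1*, which forms the anchoring fibrils of skin, was at 4.42 to 5.90 CPM in all 5 libraries, with a log2 fold change of −0.02 (adjusted p = 0.960). The log2 fold change of *Col28a1* was 1.16 (adjusted p = 0.221) at under 1 CPM.

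Collagen VI chains are made mostly by mesenchymal cells, and 5 of the 6 beaded genes did not pass the filter. For *Col6a3* the levels were 0.786 and 1.44 CPM in ctrl and 0.414 to 0.472 CPM in cko, and the log2 fold change was −1.30 (edgeR adjusted p = 0.0826; −1.69 and 0.0493 without ctrl library 1). *Col6a1*, the beaded gene with the highest level per kb, had 0.437 and 0.907 CPM in ctrl and 0.168, 0.429 and 0.276 CPM in cko. *Col6a2*, *Col6a4*, *Col6a5* and *Col6a6* had at most 7, 16, 1 and 2 counts in any library. Of the transmembrane genes, *Col23a1*, the highest per kb, had 1.92 and 3.04 CPM in ctrl and 1.96, 1.54 and 1.98 CPM in cko, a log2 fold change of −0.44 (adjusted p = 0.363). *Col25a1*, first found in amyloid plaques, had one of −0.42 (adjusted p = 0.658). *Col17a1*, a hemidesmosome collagen, had 0 and 1 counts in ctrl and 4, 4 and 7 counts in cko. *Col13a1* had 0 counts in every library, which allows up to 0.168 CPM. *Col8a2*, the short-chain gene with the highest level per kb, had 0.175 and 0 CPM in ctrl and 0, 0 and 0.0919 CPM in cko. *Col15a1*, a multiplexin, had 2 and 2 counts in ctrl and 6, 8 and 4 counts in cko. The ctrl counts of *Col17a1* and *Col15a1* were under 3, the smallest level read here, so no difference is read from them. Neither gene passed the filter, and DESeq2 gave neither an adjusted p. The counts of *Col8a1*, *Col8a2* and *Col10a1* were at most 5, 4 and 2.

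The composition of the collagen transcripts is described by each gene's share of the summed level per kb of exon. By mean share over libraries, the 5 highest genes in ctrl were *Col4a5*, *Col9a3*, *Col16a1*, *Col11a1* and *Col9a1*, which held 61.4% and 52.9% of the sum in ctrl and 54.4% to 55.6% in cko. *Col9a3* ranked highest in cko with a mean share of 16.7%, against 13.7% in ctrl, although *Col4a5* (15.3%) was above it (13.8%) in cko library 1. In ctrl library 1, *Col5a2* (6.24%) was above *Col9a1* (5.61%). *Col9a1* moved from rank 5, with a mean share of 5.80%, to rank 16, with 1.66%. *Col11a2* moved from rank 9 to rank 19, and *Col2a1* from rank 11 to rank 23. *Col27a1*, which was not called, moved from rank 7 to rank 5, with a mean share of 4.72% in ctrl and 10.1% in cko. *Col18a1*, not called in the main fit and overlapping between the groups in CPM, moved from rank 18 to rank 6. Its mean share was 1.47% in ctrl and 5.83% in cko. Shares are compositional, so a gene's share rises when the others fall.

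The genes that modify, fold, trim, cross-link and bind collagens form a list of 45, of which 42 were tested. Of these, 14 were lower and 1 was higher in cko at an adjusted p under 0.05, beside the 8.57% and 7.86% of all genes tested, and 34 of 42 fitted log2 fold changes were negative, with a median of −0.39. *Serpinh1*, the collagen chaperone HSP47, had 76.1 and 166 CPM in ctrl and 36.3, 29.8 and 29.9 CPM in cko, a log2 fold change of −1.92 ± 0.29 (SE; edgeR adjusted p = 0.0063). *P4ha2*, a catalytic subunit of collagen prolyl hydroxylase, had 14.1 and 74.0 CPM in ctrl and 2.74, 2.44 and 2.85 CPM in cko, a log2 fold change of −4.03 ± 0.63 (SE; edgeR adjusted p = 0.0074). *Adamts14*, which removes propeptides from fibrillar collagens, had 10.3 and 20.1 CPM in ctrl and 2.91, 4.54 and 4.32 CPM in cko, a log2 fold change of −1.94 ± 0.31 (SE; edgeR adjusted p = 0.0082). All 3 genes were higher in ctrl library 3 than in ctrl library 1, and no cko library reached the ctrl range. *P3h3*, of the prolyl 3-hydroxylase family, had 49.1 and 67.0 CPM in ctrl and 28.4, 32.6 and 33.7 CPM in cko, a log2 fold change of −0.88 ± 0.14 (SE; edgeR adjusted p = 0.0087). These 4 genes were called in all 5 fits that left out a library. Without ctrl library 3 the log2 fold changes were −1.25 for *Serpinh1*, −2.39 for *P4ha2* and −1.38 for *Adamts14*.

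The other genes of the list called lower were *P4ha1*, *P3h4*, *Plod3* and *Colgalt1* (hydroxylation and glycosylation), *Fkbp10* and *Fkbp14* (folding), *Loxl1* and *Loxl2* (cross-linking), and *Ddr1* and *Itga10* (receptors). Each of these 10 calls was lost without cko library 2 and also without cko library 3. Without cko library 1, only *P3h4*, *Fkbp10* and *Loxl1* of them were still called. The list gave 8 genes lower without cko library 1, 4 without cko library 2 and 4 without cko library 3. *Ddr2*, a receptor for fibrillar collagens, was the 1 gene called higher, with 7.34 and 14.8 CPM in ctrl and 24.8, 27.3 and 23.2 CPM in cko. Its log2 fold change was 1.19 ± 0.27 (SE; edgeR adjusted p = 0.0261), and it was not called when any cko library was left out. *Itgb1*, the shared subunit of collagen-binding integrins, stood at a log2 fold change of 0.02 (adjusted p = 0.872). *Adgrg1*, the receptor GPR56 that binds collagen III in the developing cortex, stood at −0.02 (adjusted p = 0.926). *Lox*, *Itga11* and *Gp6* did not pass the filter.

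**Figure D4:**
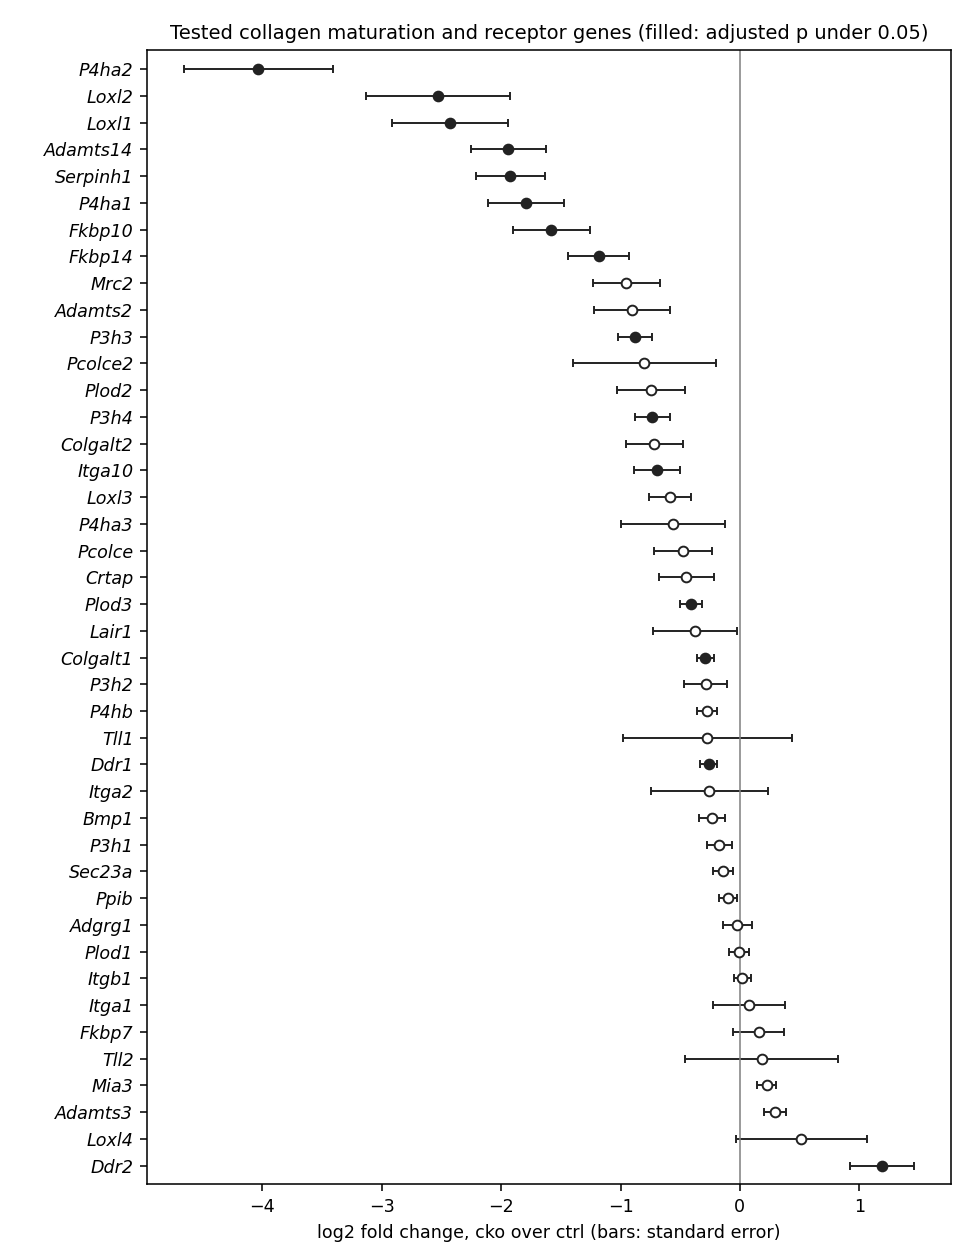
Fitted log2 fold change (cko over ctrl, x axis) of the 42 tested genes of collagen maturation, cross-linking and binding, with bars of 1 standard error and filled points at an adjusted p under 0.05 in edgeR. Of the filled points, 14 lie left of 0, down to −4.03 for P4ha2, and 1, Ddr2 at 1.19, lies right of 0.

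Markers of other cell types were read beside the collagen levels, since fibroblasts, pericytes and endothelial cells are rich sources of collagen. Of 8 fibroblast markers, *Foxc1* and *Tbx18* were lower in cko, with log2 fold changes of −1.85 (adjusted p = 0.0025) and −3.62 (adjusted p = 0.0355), and 5 did not pass the filter. Among those 5, *Dcn* had 3 and 4 counts in ctrl and 0, 1 and 1 in cko. *Lum* had 4 and 2 counts in ctrl and 0, 0 and 0 in cko. Both were at no more than 0.213 CPM in any library, near the floor, and the groups overlapped in *Ogn*, *Igf2* and *Twist1*. The summed fibroblast list had 162 to 222 CPM in ctrl and 231 to 271 CPM in cko, nearly all of it *Pdgfra*, which oligodendrocyte precursors also express. The pericyte sums were 196 to 391 CPM in ctrl and 279 to 385 CPM in cko, with 0 of 8 genes called by edgeR, 2 of them tested. Nearly all of this was *Cspg4*, which, like *Pdgfra*, is also in the oligodendrocyte lineage list below. *Rgs5*, *Vtn* and *Abcc9*, at no more than 0.655 CPM, were lower in every cko library than in either ctrl library. The groups overlapped in *Pdgfrb*, *Kcnj8*, *Acta2* and *Tagln*. The fibroblast and pericyte sums therefore say little of the other genes in these lists. The endothelial sums were 4.32 to 5.12 CPM in ctrl and 5.10 to 6.76 CPM in cko, with 0 of 7 genes called, 2 of them tested, and *Cdh5* at 0. Microglial markers summed to 0.131 and 1.17 CPM in ctrl libraries 1 and 3 and 0.184 to 0.280 CPM in cko, with *Cx3cr1* and *Itgam* at 0. Choroid plexus markers summed to 0.480 and 2.03 CPM in ctrl libraries 1 and 3 and 0.392 to 0.943 CPM in cko. In these lists 0 genes were called.

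Glial markers moved with genotype too. In the oligodendrocyte lineage list, *Sox10* and *Mbp* were lower in cko, by log2 fold changes of −1.90 and −4.16 (edgeR adjusted p = 0.0007 and 0.0004), and *Olig1* and *Olig2* were higher. The sums over its 6 genes were 2340 to 2963 CPM in ctrl and 3160 to 3460 CPM in cko. In the astrocyte list *S100b* and *Gja1* were lower, 2 of 5 genes, with sums of 694 to 1812 CPM in ctrl and 342 to 728 CPM in cko. In the neuron list *Dcx* was lower and *Syt1* higher, with sums of 1095 to 1222 CPM in ctrl and 1188 to 1218 CPM in cko. In the NSC list 3 of 8 genes were higher and 1 lower, with sums of 6971 to 7916 CPM in ctrl and 8147 to 8849 CPM in cko. The part of these differences in the collagen levels was not tested.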

How the data were processed

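Raw counts per Ensembl gene, not normalized, were deposited by the authors, who used HISAT2 on mm10 after quality filtering. The labels list GRCm39 instead, and RNeasy in place of the TRIzol of the methods. The counting tool, annotation and use of strand are not given in the sources used here, so genes overlapping on either strand are uncertain. GENCODE M21 (GRCm38) matched 31836 of 32493 gene IDs and gave positions and exon lengths. The other 657 held 0.181% to 0.299% of the counts.

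Counts of 5 libraries passed filterByExpr and TMM normalization, and edgeR 4.0.16 (R 4.3.3) fitted them with glmQLFit and glmQLFTest, with Benjamini-Hochberg adjustment over the 16710 genes tested. Standard errors (SE) were derived from the test, as the absolute log2 fold change divided by the square root of its F statistic. Values per library are CPM, and levels between genes are CPM per kb of exon. Floors cover counting error only. No source says which libraries came from separate embryos or litters, so p-values measure the spread between these libraries. The steps were tested on simulated data.

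Every collagen gene was named. Values in every library are given for called genes and for the highest gene per kb of each class. Of the maturation list, the called genes are named, with values for the 4 of smallest p in each direction. The members and lists were chosen with earlier results of these data known. The fit was repeated with DESeq2 1.42.0, with its size factors in edgeR, unfiltered, with a minimum of 10 counts per library, with a replicate block, with all 6 columns and without each library in turn. Figures were drawn with matplotlib 3.10.9. One further gene chosen for the oligodendrocyte lineage list is not reported here and was left out of its counts and sums.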

Additional observations from a re-analysis of the deposited data

How the results depend on the processing

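The 11 collagen genes called lower kept their direction under every alternative run. The number called lower was 16 of 32 with an adjusted p in DESeq2, 13 of 24 tested with at least 10 counts in every library, and 19 of 43 without a filter. With all 6 columns it was 19 in DESeq2, 19 of 29 in edgeR and 19 of 29 in edgeR with the replicate block. Leaving out 1 cko library gave 6 to 8. Except for the main fit and DESeq2 on 5 libraries, the share of all genes called is not given here. These counts therefore have no background beside them. The number called higher, 0, was 1 with DESeq2 (*Col18a1*), 1 without a filter, 1 with all 6 columns in DESeq2, 2 with all 6 columns in edgeR with and without the block, and 0 to 1 when a library was left out. The maturation list gave 4 to 18 genes lower and 0 to 4 higher when a library was left out, and 3 higher with all 6 columns in each of the 3 fits. The 6-column fits count the averaged column as a library and so understate the spread. When a library was left out, the class medians ran from −1.18 to −0.52 (fibrillar), −1.23 to −0.33 (basement membrane) and −0.96 to −0.62 (FACIT), and the median over all tested collagen genes from −0.81 to −0.48. The sign changed in 4 uncalled genes, with ranges of −0.071 to 0.99 (*Col4a3*, negative without cko library 1), −0.027 to 1.15 (*Col4a4*, negative without ctrl library 1), −1.10 to 0.76 (*Col19a1*, positive without ctrl library 3) and −0.20 to 0.19 (*Col7a1*, positive without cko library 1 or ctrl library 1). The cause of these changes was not tested.

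The genotypes share replicate numbers 1 and 3 only, and no source gives the number as a pairing, so the main fit used none. Deviations of same-numbered libraries correlated at r = 0.143 and 0.0507 across genes, and ctrl library 3 with cko library 2 at 0.116. With 2 ctrl libraries, their deviations from the ctrl mean mirror each other. These values are therefore not separate and cannot decide whether libraries were paired. With the replicate block, 10 collagen genes were called lower and 1 higher. *Col11a1* (adjusted p = 0.0680) and *Col12a1* (adjusted p = 0.0633) were not called, and *Col9a3* and *Col18a1* were. Depth limits the 14 genes that did not pass the filter.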

Other observations

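Some neighbouring collagen genes differed in their values. On chromosome 1, *Col3a1* and *Col5a2* are 24614 bases apart, and *Col5a2* was well covered in every library while *Col3a1* had 0 or 1 counts in 4 of 5. *Col9a1* and *Col19a1* are 9205 bases apart on opposite strands, with log2 fold changes of −2.70 (edgeR adjusted p = 0.0011) and −0.43 (adjusted p = 0.564), and the ratio of their levels per kb of exon was 11.8 and 3.41 in ctrl and 1.65, 0.805 and 0.960 in cko. On chromosome 10, *Col6a1* and *Col18a1* are 326009 bases apart, and *Col18a1* had up to 27.3 CPM where *Col6a1* had at most 0.907 CPM. The pairs of *Col9a1* with *Col19a1* and of *Col6a1* with *Col18a1* were picked after their values were seen, and the differences within pairs were not tested.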
